A study of Mus musculus with 5 samples.

Results

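The genes that write, copy and remove DNA methylation were followed across 5 single-cell RNA libraries of a mouse embryonic stem cell line. They were chosen by symbol: the methyltransferase genes Dnmt1, Dnmt3a, Dnmt3b and Dnmt3l, the maintenance cofactor gene Uhrf1, the oxidase genes Tet1, Tet2 and Tet3, and the glycosylase gene Tdg. All 9 were found among the 32285 genes listed, and all 9 had at least 5 UMIs per 1000000 (CPM; UMIs are unique molecular identifiers, 1 per captured transcript) in every library. The cells were of the REX-1 RFP line, a reporter line for Rex1 (Zfp42) whose promoter drives a red fluorescent protein. After a first growth in medium with LIF (leukaemia inhibitory factor), which holds such cells in self-renewal, they spent 72 h in 1 of 5 conditions. The library named NS had LIF, the library named ND had none, and the other 3 had LIF with sorbitol, an osmolyte, at 200, 250 or 300 mM. The labels do not spell out NS and ND, and say nothing on whether the line is 1 clone.

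Methylation of cytosine in CpG pairs is laid down by the de novo enzymes Dnmt3a and Dnmt3b, with Dnmt3l as a catalytically inactive partner that stimulates them in embryonic stem and germ cells. At replication, Uhrf1 recognises the half-methylated DNA and recruits Dnmt1, which copies the mark to the new strand. Tet enzymes oxidise 5-methylcytosine with 2-oxoglutarate as cosubstrate, and Tdg excises the most oxidised products for base excision repair. Mouse embryonic stem cells are known for expressing both arms at once, and for gaining Dnmt3b and losing Tet2 transcripts when they leave the naive state.

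Each condition had 1 library, so no test between conditions is possible: every ratio compares these libraries, and library and condition cannot be told apart. UMIs were summed over kept barcodes, 7906116 to 22158653 per library with NS the deepest, and the median kept barcode held 801 to 2135. Brackets and "interval" give 95% limits for counting error only. All 8 pluripotency markers were above 5 CPM in every library (summed level 5584 to 8766 CPM). The 9 fibroblast markers summed to 7.88 to 19.6 CPM, with Col3a1 and Postn at 0 throughout and Dcn and Lum at 0 in some libraries. In ND, at 200 mM and at 300 mM 1 fibroblast marker was above 5 CPM (15.8, 6.51 and 5.19 CPM), and in NS and at 250 mM none was. The 7 trophoblast markers, none at 0, summed to 108 CPM in NS, 67.5 in ND and 115, 145 and 158 with rising sorbitol. The 7 primitive endoderm markers, none at 0, summed to 14.8, 9.11, 20.5, 24.2 and 29.9 CPM in that order. The 6 markers of 2-cell-like cells summed to 4.30 to 36.6 CPM, with Zscan4f at 0 in ND and at 250 and 300 mM. The part of such cells in the values below was not tested. Socs3, a feedback inhibitor induced by LIF, was at 36.5 CPM in NS, 3.67 in ND and 58.0, 42.9 and 45.0 across sorbitol doses, and Zfp42 was at 562, 524, 521, 778 and 879 CPM. Ribosomal protein genes took 28.4% of UMIs in NS, 25.4% in ND and 25.3%, 22.5% and 21.3% across doses, and mitochondrial genes took 3.98%, 4.98%, 5.61%, 5.78% and 6.13%. A second scaling, median-of-ratios, lowered every log2 ratio to NS by 0.02 in ND and by 0.22, 0.24 and 0.26 at the 3 doses, so the log2 ratios of the 9 genes at each dose are given under both, and levels in CPM. In all, 440 barcode sequences were found in 2 libraries and 1 in 3, and leaving them out moved no ratio of the 9 genes outside its interval.

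Without LIF, the de novo genes and Tet2 stood on opposite sides of NS. Dnmt3b was 2.43-fold and Dnmt3a 1.84-fold higher in ND, Tet2 was 2.10-fold lower, and the other 6 genes lay within 1.5-fold. With sorbitol, Dnmt3b, Dnmt3a, Tet2 and Tet3 were all above NS at each dose, and Dnmt3l was above it by an amount that was larger at each higher dose. Under median-of-ratios the Dnmt3l interval at 200 mM held 0 (log2 0.03, -0.06 to 0.11). The count of genes at least 1.5-fold higher was 2 in ND (Dnmt3a and Dnmt3b), 3 at 200 mM (Dnmt3a, Dnmt3b and Tet3), 4 at 250 mM (those and Tet2) and 6 at 300 mM (those, Dnmt1 and Dnmt3l). Of all genes that reached 5 CPM in NS or in the library compared, 10.0% were that much higher in ND, 26.8% at 200 mM, 26.5% at 250 mM and 32.8% at 300 mM. One gene of the 9, Tet2 in ND, was at least 1.5-fold lower, and none was with sorbitol; over all genes the shares were 7.07% in ND, 11.0% at 200 mM, 8.69% at 250 mM and 10.6% at 300 mM.

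Median-of-ratios scaling left the ND count at 2 higher and 1 lower, where 9.19% of all genes were higher and 7.90% lower. At 200 mM it gave the same 3 genes, beside 17.1% of all genes higher and 18.9% lower. At 250 mM it gave 3, without Tet3, beside 15.3% higher and 16.5% lower. At 300 mM it gave 3, namely Dnmt3b, Dnmt3l and Tet2, beside 19.8% higher and 19.3% lower. No gene of the 9 was 1.5-fold lower with sorbitol under that scaling. Over all genes, the share of calls that were higher calls moved from 70.8%, 75.3% and 75.6% with CPM to 47.4%, 48.1% and 50.6% with median-of-ratios at the 3 doses. With CPM the median log2 ratio of the 9 genes was 0.13 in ND beside 0.08 over all genes, and 0.43, 0.48 and 0.72 at the 3 doses beside 0.20, 0.23 and 0.29. With median-of-ratios it was 0.11 beside 0.06 in ND, and 0.21, 0.24 and 0.46 beside -0.03, -0.02 and 0.01 at the doses. All 4 of these comparisons share the NS library.

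**Figure D1:**
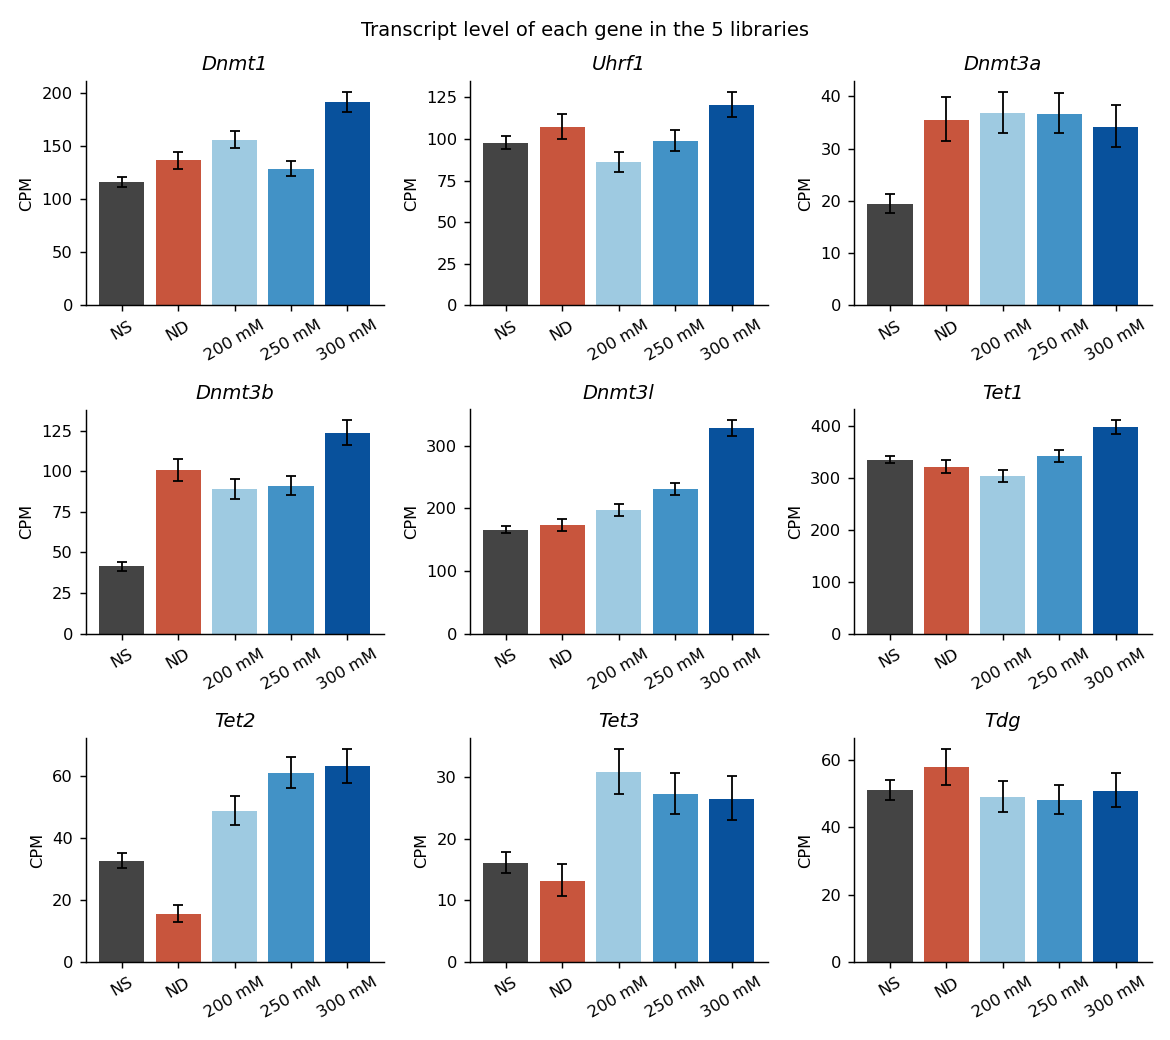
Level of each of the 9 genes in CPM in the NS, ND and 200, 250 and 300 mM sorbitol libraries; bars are summed levels of 1 library each and whiskers are 95% counting intervals. Dnmt3a and Dnmt3b are lowest in NS, Tet2 is lowest in ND at 15.6 CPM, and Dnmt3l is highest at 300 mM at 328 CPM.

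Dnmt3b encodes the de novo enzyme that marks the step out of the naive state. It lies on mm10 chromosome 2 (153649450 to 153687730, plus strand), and Tet2, which encodes a Tet oxidase without the CXXC DNA-binding domain of its relatives, on chromosome 3 (133463679 to 133545139, minus strand). Since both genes' products act on CpG and their levels parted in ND, the 250 bases before their RefSeq start sites (GRCm38.p6) are shown 5′ to 3′ with CpG in capitals, Dnmt3b at chr2:153649199-153649448 on the plus strand and Tet2 at chr3:133544391-133544640 on the minus strand.
Dnmt3b: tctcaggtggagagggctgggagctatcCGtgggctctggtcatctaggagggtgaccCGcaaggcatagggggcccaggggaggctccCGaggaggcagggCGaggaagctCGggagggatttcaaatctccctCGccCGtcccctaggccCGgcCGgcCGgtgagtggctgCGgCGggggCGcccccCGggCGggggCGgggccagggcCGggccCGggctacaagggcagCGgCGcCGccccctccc
Tet2: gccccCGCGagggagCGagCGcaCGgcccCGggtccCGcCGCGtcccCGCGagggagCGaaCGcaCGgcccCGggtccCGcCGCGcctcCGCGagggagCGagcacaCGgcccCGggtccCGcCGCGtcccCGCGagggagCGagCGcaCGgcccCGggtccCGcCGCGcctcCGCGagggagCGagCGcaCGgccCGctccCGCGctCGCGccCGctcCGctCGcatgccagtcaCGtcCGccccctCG
The Tet2 stretch held 51 CpG pairs, more than 99.9% of 32851 RefSeq promoter windows of that length, and the Dnmt3b stretch held 21, more than 83.7%; the median window held 6. Their GC contents were 83.6% and 75.2%, against a median of 52.4%. Neither window held TTCNNNGAA, the motif bound by STAT factors, which read the same on both strands and occurred in 7.02% of windows. Methylation of these stretches was not measured here.

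Dnmt3b stood at 41.3 CPM (38.7 to 44.1) in NS, 101 (93.7 to 108) in ND and 89.1 (83.1 to 95.4), 91.0 (85.1 to 97.2) and 124 (116 to 131) at 200, 250 and 300 mM. NS was thus below every other library, 200 mM, 250 mM and ND overlapped their neighbours in order, and 300 mM was above them all. The log2 ratio to NS was 1.28 in ND (1.14 to 1.42), a value above that of 98.8% of all genes tested. At the sorbitol doses it was 1.11, 1.14 and 1.58, or 0.89, 0.90 and 1.32 with median-of-ratios scaling, and these exceeded 91.2%, 92.9% and 96.0% of genes. Between the highest and the lowest dose the log2 ratio of Dnmt3b was 0.47 (0.34 to 0.61), or 0.43 with median-of-ratios. It was the only one of the 9 genes past 2-fold over NS in any library with CPM scaling.

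Dnmt3a (chromosome 12, 3806007 to 3914443, plus strand), the other active de novo enzyme, stood at 19.4 CPM (17.6 to 21.3) in NS, 35.5 (31.5 to 39.95) in ND and 36.8 (33.0 to 40.9), 36.7 (33.0 to 40.7) and 34.1 (30.3 to 38.3) across doses. Here the 4 other libraries were all above NS, and no neighbours among those 4 differed beyond their intervals. The log2 ratio was 0.88 in ND (0.65 to 1.097) and 0.93, 0.92 and 0.82 with sorbitol, or 0.71, 0.69 and 0.56 under median-of-ratios. The last of these is below 1.5-fold. UMIs of Dnmt3b outnumbered those of Dnmt3a 2.14 to 1 in NS, 2.83 to 1 in ND and 2.42, 2.48 and 3.62 to 1 across doses, a ratio that no scaling touches. Relative to NS, its log2 difference was 0.41 in ND (0.14 to 0.67) and 0.76 at 300 mM (0.51 to 1.02), while the intervals at 200 and 250 mM held 0.

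Dnmt3l (chromosome 10, 78041947 to 78063622, plus strand), the inactive stimulating partner, was at 166 CPM (161 to 171) in NS, 174 (164 to 183) in ND and 197 (188 to 206), 231 (221 to 241) and 328 (316 to 340) at 200, 250 and 300 mM. NS and ND overlapped, and each sorbitol library lay above the one of lower dose without overlap. The log2 ratio to NS was 0.06 in ND (-0.03 to 0.15) and 0.25, 0.48 and 0.98 with sorbitol, or 0.03, 0.24 and 0.72 under median-of-ratios. With that scaling the interval at 200 mM held 0, so whether Dnmt3l was above NS there depends on the scaling. Set against 200 mM, the 300 mM library was 1.67-fold higher (log2 0.74, 0.65 to 0.82; 0.70 under median-of-ratios). It was the only one of the 9 genes past 1.5-fold in that comparison, where 5.53% of all genes were that much higher, and none of the 9 was that much lower, beside 4.14% of all genes. Relative to Dnmt3a, Dnmt3l UMIs were lower than in NS without LIF and at the 2 lower doses: 8.57 to 1 in NS, 4.88 in ND, 5.35 and 6.30 at 200 and 250 mM, and 9.61 at 300 mM, where the interval of the difference held 0. Part of Dnmt3l (1664 bases) is shared with Aire on the opposite strand, whose own level was 56.8 CPM in NS and 28.0 to 35.3 elsewhere. The use of strand is not given in the sources used here, so reads within the shared bases cannot be told apart.

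In contrast to the 2 stretches above, the 250 bases before the most upstream RefSeq start of Dnmt3l (chr10:78042037-78042286, plus strand, CpG in capitals) held 5 CpG pairs.
Dnmt3l: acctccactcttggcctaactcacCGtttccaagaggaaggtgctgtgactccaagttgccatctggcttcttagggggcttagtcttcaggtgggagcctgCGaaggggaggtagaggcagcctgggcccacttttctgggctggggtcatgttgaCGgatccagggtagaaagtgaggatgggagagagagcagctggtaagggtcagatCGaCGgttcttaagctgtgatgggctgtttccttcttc
Its 2 other starts had 4 and 3 CpG pairs, and the 3 starts of Dnmt3a had 38, 40 and 15. Thus the windows of the Dnmt3 genes and Tet2 ranged from 3 to 51 CpG pairs, with the genes that were higher in ND, Dnmt3a and Dnmt3b, and the gene that was lower, Tet2, both among the CpG-rich ones. Genes within 1.5-fold of NS in ND also had such windows, with up to 30 CpG pairs for Uhrf1 and up to 26 for Dnmt1. Tdg had 19, Tet3 had 17 and Tet1 had 15. A TTCNNNGAA match stood before 1 Dnmt3l start and before the Tdg start.

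**Figure D2:**
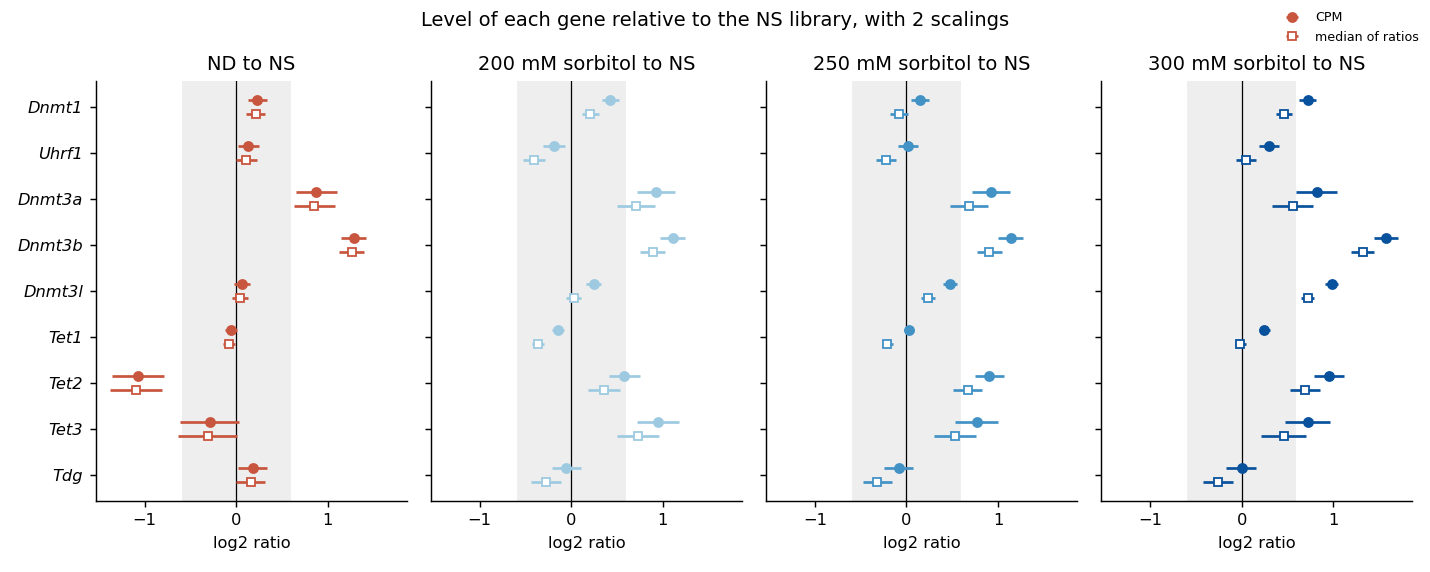
Log2 ratio of each gene to NS in the ND and the 200, 250 and 300 mM sorbitol libraries; filled circles use CPM and open squares median-of-ratios scaling, whiskers are 95% counting intervals, and the grey band marks changes below 1.5-fold. Tet2 lies to the left in ND (-1.07) and to the right at every dose, while Dnmt3b lies to the right in all 4 panels.

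Dnmt1 (chromosome 9, 20907209 to 20959888, minus strand), the maintenance methyltransferase, was at 116 CPM (112 to 121) in NS, 136 (128 to 145) in ND and 156 (148 to 164), 129 (122 to 136) and 192 (182 to 201) across doses. The doses did not stand in order, since the 200 mM library was above the 250 mM one without overlap. Its log2 ratio to NS was 0.23 in ND (0.13 to 0.34) and 0.43, 0.15 and 0.72 with sorbitol, or 0.21, -0.09 and 0.46 under median-of-ratios, so its direction at 250 mM depends on the scaling. Uhrf1 (chromosome 17, 56303321 to 56323486, plus strand), which guides Dnmt1 to replicated DNA, was at 97.8 CPM in NS, 107 in ND and 86.0, 98.8 and 121 across doses, within 1.5-fold of NS in each. Its log2 ratios with sorbitol were -0.19, 0.01 and 0.30, or -0.40, -0.22 and 0.04 under median-of-ratios. As a ratio of UMIs, Uhrf1 to Dnmt1 was 0.842 in NS, 0.786 in ND and 0.551, 0.767 and 0.630 across doses. It was lower than in NS at 200 mM (log2 difference -0.61, -0.76 to -0.46) and 300 mM (-0.42, -0.56 to -0.28), and the intervals for ND and 250 mM held 0.

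Both genes are known targets of E2F factors, which drive transcription at the entry to S phase. The motif TTCGCGC, searched on both strands, was found in 1.28% of RefSeq promoter windows. Among the 9 genes it stood before 1 start each of Dnmt1 (2 matches) and Uhrf1 (1 match), shown with the matches in capitals at chr9:20952760-20952857, minus strand, and chr17:56304114-56304150, plus strand.
Dnmt1: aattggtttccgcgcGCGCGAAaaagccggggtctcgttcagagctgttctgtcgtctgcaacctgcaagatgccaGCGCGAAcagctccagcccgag
Uhrf1: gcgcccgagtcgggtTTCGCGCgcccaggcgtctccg
The windows before the other RefSeq starts of Dnmt1 and Uhrf1 held no such match. Both windows with matches lie downstream of another start of the same gene, within the stretch transcribed from it. The matches are of letters only, and no binding was measured.

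Tet1 (chromosome 10, 62804570 to 62908996, minus strand), the oxidase typical of embryonic stem cells, varied little: 335 CPM (327 to 343) in NS, 321 (309 to 334) in ND and 302 (291 to 314), 341 (330 to 353) and 397 (383 to 411) across doses. The neighbours in order overlapped except for 300 mM, which was above the rest. Its log2 ratio to NS was -0.06 in ND (-0.13 to 0.00) and -0.15, 0.03 and 0.24 with sorbitol. Median-of-ratios scaling gave -0.37, -0.21 and -0.02 at the doses, so the direction at 250 and 300 mM depends on the scaling.

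Tet2 had the widest range of the Tet genes as a fold, with 32.7 CPM (30.3 to 35.1) in NS, 15.6 (12.9 to 18.6) in ND and 48.8 (44.4 to 53.5), 61.1 (56.3 to 66.2) and 63.3 (58.0 to 69.0) at 200, 250 and 300 mM. ND lay below NS and all sorbitol libraries above it, and only the pair of 250 and 300 mM overlapped. The ND value rests on 123 UMIs against 724 in NS and gives a log2 ratio of -1.07 (-1.36 to -0.79); 2.28% of genes tested had a lower one. With sorbitol the log2 ratios were 0.58, 0.90 and 0.95, or 0.36, 0.67 and 0.69 under median-of-ratios. At 200 mM the CPM ratio, 1.49-fold, is just short of 1.5-fold. Tet2 UMIs were 9.75% of Tet1 UMIs in NS, 4.85% in ND and 16.1%, 17.9% and 16.0% across doses, with no interval of the differences from NS holding 0.

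Tet3 (chromosome 6, 83362373 to 83459084, minus strand), the third oxidase and best known from the zygote and neurons, was at 16.0 CPM (14.4 to 17.8) in NS, 13.2 (10.7 to 15.9) in ND and 30.8 (27.3 to 34.6), 27.2 (24.1 to 30.7) and 26.4 (23.0 to 30.2) across doses. NS and ND overlapped, as did the 3 doses among themselves, and the doses lay above NS. Its log2 ratio was -0.28 in ND (-0.61 to 0.03) and 0.94, 0.77 and 0.72 with sorbitol, or 0.72, 0.53 and 0.46 under median-of-ratios. Tet3 UMIs were 4.78% of Tet1 UMIs in NS, 4.1% in ND and 10.2%, 7.98% and 6.65% across doses. Tdg (chromosome 10, 82629828 to 82650799, plus strand), which excises the oxidised bases, was at 51.0 CPM in NS, 57.8 in ND and 49.0, 48.1 and 50.9 across doses. All neighbours in the order of its levels overlapped. Its log2 ratios to NS were 0.18 in ND (0.02 to 0.34) and -0.06, -0.08 and -0.00 with sorbitol, or -0.27, -0.32 and -0.26 under median-of-ratios. Apart from Aire, the counted genes that overlap any of the 9 had at most 15 UMIs per library.

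The balance of the arms was read within each library, where scaling cancels. UMIs of Dnmt3a, Dnmt3b and Dnmt3l together were 0.591 times those of the 3 Tet genes in NS, 0.885 times in ND and 0.844, 0.834 and 0.998 times across doses. The log2 difference from NS was 0.58 in ND (0.49 to 0.68), 0.52 (0.43 to 0.60) at 200 mM, 0.50 (0.41 to 0.58) at 250 mM and 0.76 (0.68 to 0.84) at 300 mM. All 4 libraries were therefore above NS by more than counting error. In NS, Dnmt3l gave 3677 of the 5022 Dnmt3 UMIs and Tet1 7422 of the 8501 Tet UMIs, so these genes weighed most there. For Dnmt3b to Tet2, a pair picked after its values were seen, the ratio was 1.27 in NS, 6.46 in ND and 1.82, 1.49 and 1.95 across doses. For Dnmt3b to Dnmt1 it was 0.356 in NS, 0.737 in ND and 0.571, 0.707 and 0.645 across doses, higher than NS in each by log2 0.68 to 1.05. A ratio of UMIs between genes is not a ratio of transcripts, since capture differs by gene, so only its change between libraries is read.

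**Figure D3:**
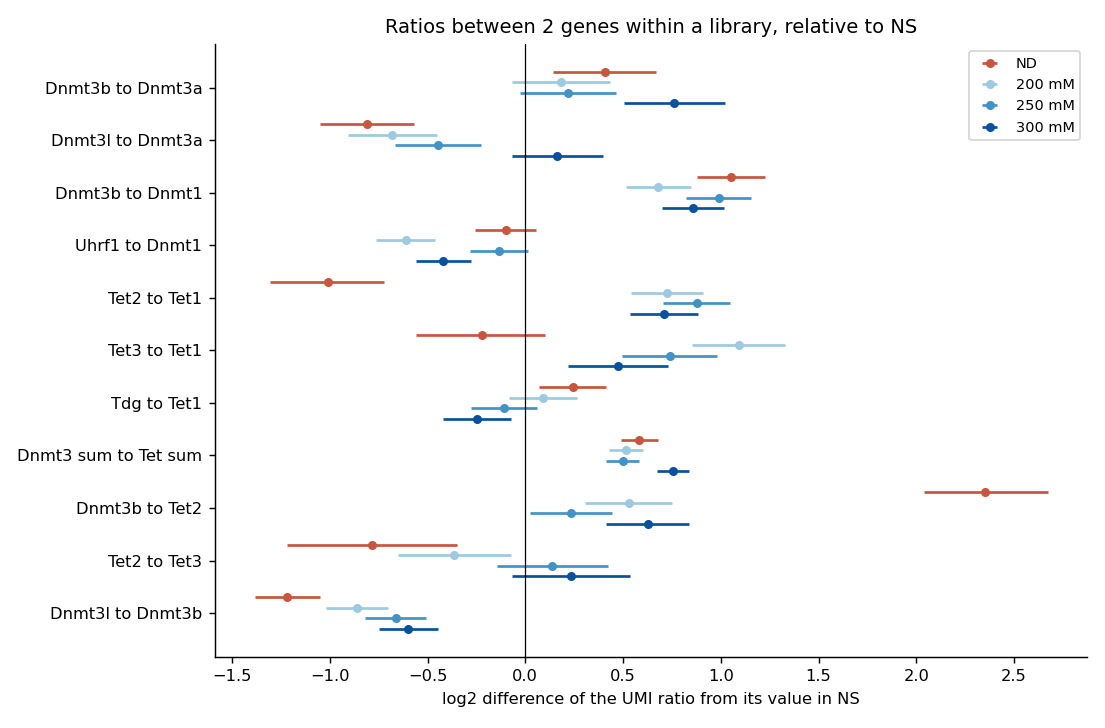
Log2 difference from NS of the UMI ratio between 2 genes, or between the summed Dnmt3 and summed Tet genes, in ND and the 3 sorbitol libraries; whiskers are 95% counting intervals and the last 3 rows were added after the values were seen. ND stands to the left of 0 for Tet2 to Tet1 (-1.01) where the sorbitol libraries stand to the right, and at 2.35 for Dnmt3b to Tet2.

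In single barcodes these transcripts were sparse. After thinning to 500 UMIs per barcode, 35.9% of NS barcodes, 38.0% of ND barcodes and 38.9%, 41.9% and 48.6% of sorbitol barcodes held a UMI of any of the 9 genes; unthinned, the shares were 83.7%, 56.0%, 59.6%, 64.1% and 66.4%, with NS the deepest. At least 1 UMI of a Dnmt3 gene was in 11.0% in NS, 14.3% in ND and 15.5%, 16.8% and 21.4% across doses, and at least 1 UMI of a Tet gene in 17.3%, 15.5%, 16.7%, 19.6% and 21.7%. Dnmt3b was in 1.91% of thinned NS barcodes (1.65 to 2.20), 4.97% (4.53 to 5.43) in ND and 4.32%, 4.35% and 5.98% with sorbitol; unthinned it was in 7.78% to 9.79% in all 5. Tet2 was in 1.70% (1.46 to 1.97) in NS, 0.768% (0.601 to 0.968) in ND and 2.27%, 3.23% and 3.19% with sorbitol; unthinned in 6.94%, 1.33%, 4.33%, 5.80% and 5.09%. So the thinned shares nearly followed the summed levels, whereas the unthinned ones mixed in depth. With so few UMIs per barcode a thinned share is almost fixed by the summed level, so it adds no separate support. The libraries hold no cell type known to lack these genes, so no background share from free RNA could be set beside these. Across thinned barcodes the variance of the 9 genes was 0.98 to 1.06 times the mean where measured (a mean of at least 0.02 UMIs), beside 0.98 to 1.04 for the middle 90% of genes over the 5 libraries. Past their library's 95th percentile, where some genes lie by definition, were Tet2 at 300 mM and Dnmt3b in ND. Tet2 was at 1.058 times against a limit of 1.033, and Dnmt3b at 1.036 against 1.034, in a single random thinning.

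To ask whether the genes moved with cell cycle or pluripotency genes within a library, barcodes were ranked by the share of UMIs in a list, and the highest and lowest 3000 were compared. In ND, Dnmt3b and the formative list, genes of the step after the naive state, went together. Formative-high barcodes had 125 CPM of Dnmt3b and formative-low ones 83.5 (log2 0.58, 0.33 to 0.84), and Dnmt3l was at 193 against 149 CPM (log2 0.37, 0.17 to 0.57). At 300 mM Dnmt3l went the other way by the same list (306 against 347 CPM; log2 -0.18, -0.32 to -0.04). By the naive list, Dnmt3b in ND was lower in the high end (90.4 against 112 CPM; log2 -0.31, -0.56 to -0.05) and Tet2 higher (21.0 against 11.4 CPM; log2 0.88, 0.21 to 1.58, from 53 and 30 UMIs). In NS, Tet2 was also higher in naive-high barcodes (36.7 against 29.6 CPM; log2 0.31, 0.03 to 0.59), and Dnmt3b was level (45.9 against 43.8 CPM). In the sorbitol libraries the intervals of Dnmt3b and Tet2 held 0 by either list, with Dnmt3b between -0.12 and 0.10 and Tet2 between -0.27 and 0.30. Whether ND differs from the other libraries in this was not tested. The formative-low end was drawn at random from the barcodes without a formative UMI in ND (4389) and at the 3 doses (6939, 6034 and 6201).

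**Figure D4:**
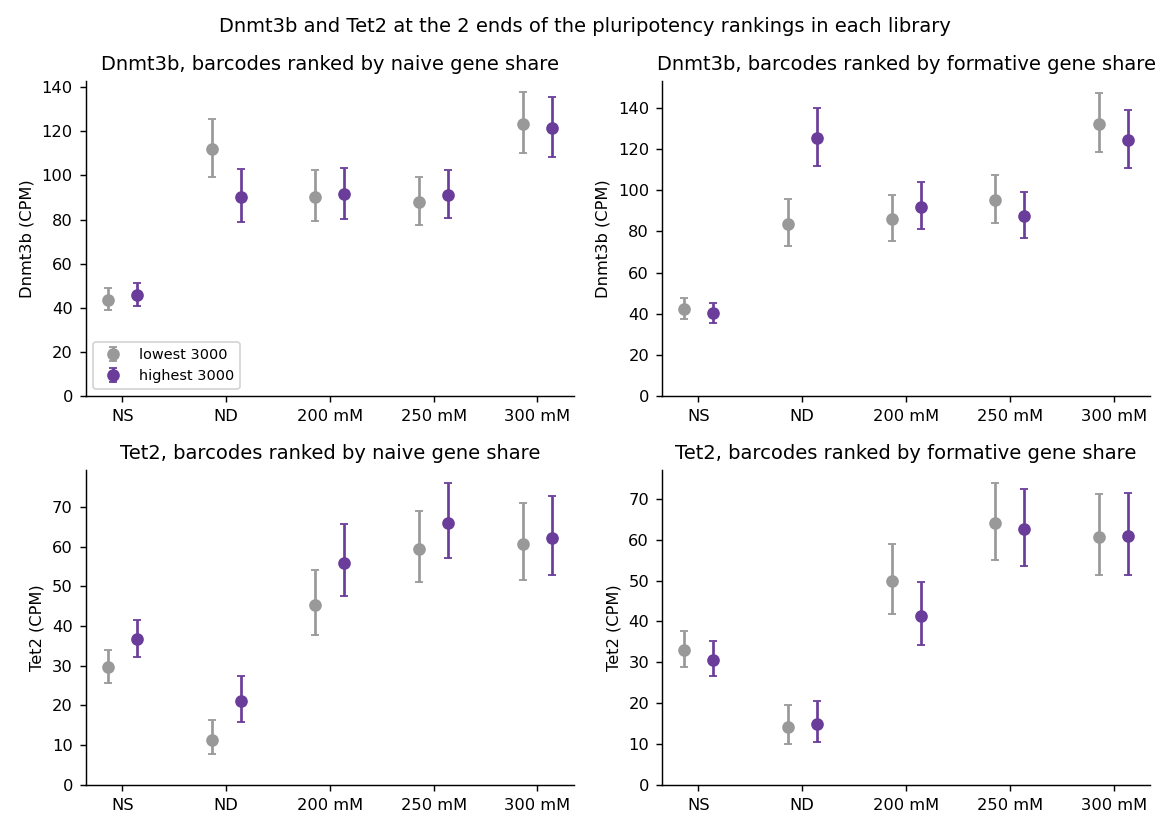
Level of Dnmt3b (top) and Tet2 (bottom) in CPM in the lowest and highest 3000 barcodes ranked by naive (left) or formative (right) genes, in each of the 5 libraries; whiskers are 95% counting intervals. In ND the Dnmt3b points part by the formative ranking (83.5 and 125 CPM), and the Tet2 points by the naive ranking (11.4 and 21.0 CPM).

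By the S phase list, some libraries had higher maintenance genes in the high end. Dnmt1 was at 125 CPM in S-phase-high and 112 in S-phase-low barcodes of NS (log2 0.17, 0.02 to 0.31), and at 145 and 119 in ND (log2 0.28, 0.06 to 0.51). Uhrf1 was at 108 and 89.6 CPM in NS (log2 0.27, 0.11 to 0.43) and at 132 and 110 at 300 mM (log2 0.27, 0.03 to 0.50). Tet1 was higher in the S-phase-high end of NS (350 against 318 CPM) and ND (351 against 297 CPM). In the remaining libraries these 3 genes' intervals by S phase held 0. Other lists gave values of like size: in NS, Dnmt1 was also higher by the G2 and M list (log2 0.19, 0.04 to 0.34), and Tet1 was above 0 by all 4 lists (0.14 by S phase, 0.16 by G2 and M, 0.15 by naive and 0.09 by formative genes). Of 180 such ratios over 9 genes, 4 lists and 5 libraries, 16 intervals lay above 0, 8 below and 156 held 0, and with so many ratios some fall on either side by counting error.

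The other genes of the pathway were taken from fixed lists, whose counts at 1.5-fold stand beside the shares of all genes given above. Of 22 cofactors and regulators of de novo and maintenance methylation, 5 were higher and 0 lower in ND (median log2 ratio 0.43, all genes 0.08), where 10.0% of all genes were higher and 7.07% lower. With median-of-ratios scaling the ND counts were 4 and 0, beside 9.19% and 7.90%. The list mixes genes that act for methylation and against it, so its counts give no direction for methylation. Of the 21 measured at 300 mM 10 were higher and 0 lower, beside 32.8% and 10.6% of all genes. Under median-of-ratios the 300 mM counts were 7 and 2, beside 19.8% and 19.3%. Dppa3, which keeps Uhrf1 from chromatin, was at 58.5 CPM in NS and 136 in ND (log2 1.22). Cdca7, a partner of the remodeller Hells, was at 36.4 and 61.5 CPM, and Smchd1, a silencer of the inactive X, at 58.1 and 88.9. At 300 mM the Uhrf1 relative Uhrf2 was at 61.1 CPM against 24.1 in NS (log2 1.34, 1.08 under median-of-ratios). Usp7, which deubiquitinates Uhrf1 and Dnmt1, was at 311 against 138 CPM (1.17, 0.91), and Zfp57, which holds methylation at imprints, at 85.0 against 42.6 (0.74 under median-of-ratios).

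Of the oxidation and base excision partners, 4 of 16 measured were higher and 3 lower in ND, and 4 of 15 higher and 2 lower at 300 mM (3 and 5 under median-of-ratios). Of all genes, 10.0% were higher and 7.07% lower in ND, and 32.8% and 10.6% at 300 mM (19.8% and 19.3% under median-of-ratios). With CPM the median log2 ratio of this list at 300 mM was 0.31, beside 0.29 over all genes. Gadd45b, a stress-induced repair adaptor, was at 36.9 CPM in NS, 17.3 in ND and 14.6 at 300 mM, below NS in all 4 libraries. Ung, the uracil glycosylase, was at 39.1, 78.7 and 83.7 CPM in the same 3 libraries. Cxxc5, a CXXC protein related to the domain Tet2 lacks, was at 31.9 CPM in NS and 62.6 in ND, and Ogt, the glycosyltransferase that binds Tet proteins, was at 120 in NS and 258 at 300 mM. Among readers of CpG, 1 of 11 was higher and 1 lower in ND, and 5 of 12 higher and 0 lower at 300 mM (3 and 0 under median-of-ratios), near the 10.0% and 32.8% of all genes that were higher. Cxxc1 was at 13.7 CPM in NS, 20.7 in ND and 30.9 at 300 mM, and Kdm2b, a CXXC demethylase, at 35.5, 49.1 and 73.7. The methyl-CpG-binding domain genes Mbd3 (112, 157 and 90.3 CPM) and Mbd6 (22.1, 24.8 and 34.5 CPM) were the other readers named; the log2 ratio of Mbd6 at 300 mM, 0.64, was 0.38 under median-of-ratios.

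In methyl donor and 2-oxoglutarate metabolism 5 of 22 genes were higher and 0 lower in ND (median 0.26), and 9 of 22 higher and 2 lower at 300 mM (8 and 2 under median-of-ratios), beside 10.0% of all genes higher in ND and 32.8% at 300 mM (19.8% under median-of-ratios). Mat2a, which makes the methyl donor S-adenosylmethionine, was at 179 CPM in NS, 302 in ND and 349 at 300 mM. Gldc, of glycine cleavage, was at 57.0, 114 and 118 CPM, and Tdh, the threonine dehydrogenase of mouse embryonic stem cells, at 114, 206 and 176, where its log2 ratio at 300 mM, 0.62, was 0.36 under median-of-ratios. Idh1, which makes 2-oxoglutarate, was at 59.3 CPM in NS, 62.4 in ND and 191 at 300 mM (log2 1.69, 1.43 under median-of-ratios). Mtr, the methionine synthase, was at 14.3 CPM in NS and 34.9 at 300 mM.

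The listed germline genes, of a kind that promoter methylation is known to hold silent, did not move as 1 group. Sycp3 (107 CPM) and Tex19.1 (112 CPM) were not silent in NS, and methylation of these genes was not measured. In ND 0 of 10 measured were higher and 5 lower (median -0.62), where 7.07% of all genes were lower. At 300 mM 4 of 11 were higher and 2 lower, beside 32.8% and 10.6% of all genes. Under median-of-ratios the counts were 3 and 5, beside 19.8% and 19.3%. With CPM the median log2 ratio of the list at 300 mM was -0.29, beside 0.29 over all genes. Sycp3, of the synaptonemal complex, was at 107 CPM in NS, 59.4 in ND and 27.9, 16.6 and 14.1 across doses, lower at each. Dazl, a germ cell RNA-binding protein, went the other way with sorbitol: 8.03 CPM in NS, 6.45 in ND and 28.6, 24.4 and 32.9 across doses. Taf7l, a testis TFIID subunit, was at 8.80, 4.30, 26.7, 29.2 and 42.2 CPM. Tex19.1 was at 112, 103, 49.9, 64.2 and 92.1 CPM.

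Pluripotency and cell cycle genes differed between the same libraries, and their part in the values above was not tested. The shares of all genes to set beside these counts are 10.0% higher and 7.07% lower in ND, and 32.8% and 10.6% at 300 mM (19.8% and 19.3% under median-of-ratios). In ND 9 of 14 formative genes were higher and 1 lower, led by Lef1 (3.70 to 41.9 CPM), Otx2 (21.5 to 78.8) and Pou3f1 (12.0 to 43.8). Naive genes split 3 higher and 3 lower in ND (3 and 4 under median-of-ratios). Tbx3 was at 105 CPM in NS and 29.6 in ND, and Klf4 at 102 and 30.9. Dppa3, also on the naive list, went the other way, at 58.5 and 136. At 300 mM 9 of 14 naive genes were higher and 0 lower (7 and 0 under median-of-ratios), with Tbx3 at 411 CPM, Klf4 at 395 and Spp1 at 295 against 111 in NS. Formative genes at 300 mM were 2 higher and 1 lower of 11 (2 and 3 under median-of-ratios). With CPM their median log2 ratio was -0.20, beside 0.29 over all genes. Otx2 was at 62.2 CPM there, Tcf15 at 19.5 against 35.5 in NS, and Dusp6 at 21.1 against 14.9. Of 24 S phase genes 2 were higher in ND and 0 lower, and at 300 mM 3 were higher and 1 lower (1 and 5 under median-of-ratios). Of 20 genes of G2 and M, 0 were higher and 5 lower at 300 mM (0 and 10), among them Top2a (959 CPM in NS, 537 at 300 mM), Mki67 (81.0 and 47.0) and Aurka (61.9 and 38.1).

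Likeness of profile was measured as the root mean square difference of log2(CPM + 1), centred over the 5 libraries, among 7013 genes of at least 20 CPM in any library; smaller is more alike. Nearest to Dnmt3b was Zfp462, a zinc finger gene (0.05; 17.1 CPM in NS, 40.7 in ND and 36.9, 41.3 and 52.1 across doses), then Erbb3 and Ammecr1 (both 0.11). Nearest to Tet2 was Reep1 (0.09; 13.2, 6.45, 20.5, 22.6 and 27.9 CPM), then Col4a1 (0.10) and Calcoco2 (0.11). For Dnmt3a the nearest were Ctr9, Bace1 and Foxo4, for Dnmt3l Snx17, Kcmf1 and Reep3, and for Tet3 Zfp950, Gch1 and Nudt4. For Tet1 they were Rab7, Scml2 and Bclaf3, for Dnmt1 Gtf3c4, Ppm1f and Siah1a, for Uhrf1 Plpp1, Tnfaip1 and Nufip2, and for Tdg Mrps15, Mettl2 and Mast2. Among the 9 genes the closest pair was Uhrf1 and Tet1 (0.08), the 2 active de novo genes stood 0.26 apart, and the farthest pair was Tet2 and Tdg (0.81). With 5 libraries, such likeness is a description of 5 values.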

How the data were processed

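Single-cell RNA was measured in 5 libraries of 10000 barcodes, 1 per condition. Each matrix was deposited by the authors as raw UMI counts, and per the file headers it came from Cell Ranger 6.0.1. The submitters' processing notes also list Seurat 4.1.1, R 4.1.2 and mm10 but give them no role. Per the labels' protocols, cells were lysed in Trizol for a Lexogen 3' kit, although the files are barcode matrices. Which steps apply, the use of strand and how barcodes were chosen: not given in the sources used here.

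A barcode was kept if it had 500 genes or more and no more than 20% mitochondrial UMIs (9240 in ND to 10000 in NS and at 250 mM), and no doublet caller was run. Counts were summed and scaled to CPM. Levels have exact Poisson intervals, ratios conditional binomial ones, ratios between genes conditional odds-ratio ones and shares Clopper-Pearson ones, all at 95% and for counting error only. A gene counted as higher or lower at 1.5-fold among genes of at least 5 CPM in either library. All 9 genes were named; of each list up to 3 genes of largest change in ND and in 300 mM sorbitol were named, at 20 CPM or more, and 3 genes of nearest profile per gene. One gene that this rule names is not reported here. The 9 genes and the lists were chosen with earlier results of these data known. Alternatives were the scaling, the total, barcode filters, the fold, the minimum level, thinning and the size of the ranking ends. Scripts were tested on simulated data. Python 3.11.15, numpy 2.4.6, pandas 2.3.3 and SciPy 1.17.1 were used. Coordinates are from GENCODE (GRCm38, the mm10 build) and promoters from RefSeq (GRCm38.p6, 9 of 9 genes matched).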

Additional observations from a re-analysis of the deposited data

How the results depend on the processing

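Counting 2-fold in place of 1.5-fold left 1 gene of the 9 higher in ND, 1 at 200 mM, 1 at 250 mM and 1 at 300 mM, and 0 at 300 mM against 200 mM. Median-of-ratios scaling gave 3 at 300 mM in place of 6 and moved 26 of 45 log2 ratios outside their counting intervals. A total without mitochondrial and ribosomal protein genes moved 5 of 45, and the 5000 barcodes with fewest UMIs moved 4. Those 5000 also moved 5 of 44 ratios between genes, among them the Dnmt3 to Tet balance against NS, from 0.58 to 0.42 in ND, 0.50 to 0.41 at 250 mM and 0.76 to 0.67 at 300 mM. All deposited barcodes, leaving out shared barcodes and leaving out the 5% of barcodes with most UMIs moved 0 of either kind. With 1000 barcodes at each end of the rankings, 28 of 180 ratios moved outside their intervals and the log2 ratio of Dnmt3b by G2 and M genes at 300 mM turned from -0.27 to 0.17; the cause was not tested. In ND the Dnmt3b ratio by formative genes was then 0.85, and those by naive genes were -0.70 for Dnmt3b and 2.88 for Tet2. The main, larger ends by naive genes in ND held only 53 (high) and 30 (low) Tet2 UMIs. The ends of 1000 barcodes lie within those, so the 2.88 rests on fewer UMIs still. It has no interval here, and its size is not read as a stronger association. No paired analysis was possible because each group has 1 library. Depth limits the single-barcode shares and the ND values of Tet2 and Tet3 (123 and 104 UMIs).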
